A study of Mus musculus with 4 samples.

Results

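Expression of 54 genes that carry out mitosis was examined in mouse haematopoietic stem cells (HSC) that had lost the retinoblastoma (Rb) family. The genes were taken from a list by name, and the value of each is that of its brightest probe set on average, chosen among probe sets that the platform annotation ties to exactly 1 gene symbol. That gave values for 53 of the 54 genes, among 18193 genes on the array in all. Ccnb1 (cyclin B1) has no value here. HSC had been sorted with a KLS CD48- CD150+ gate 2 weeks after tamoxifen injection of adult mice had started recombination. The 2 Rb family deficient pools carry the genotype label Rb -/- p130 -/- p107-/-. The 2 wild type pools carry the label Rb +/+ p130 +/+ p107-/-, so that by label both groups lack p107 and the wild type mice were not wild type at that gene. Each pool came from 3 mice, and the labels do not give the driver of the recombinase. Nothing states that the pools of a group came from separate experiments, so p-values measure the spread between these pools, which may be technical.

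Cyclin-dependent kinase 1 (Cdk1) with its A- and B-type cyclins drives cells into mitosis, and the Plk1, aurora and checkpoint kinases then order spindle assembly, chromosome attachment and division. Most genes of this machinery are transcribed late in the cell cycle and are kept low in quiescent cells. In quiescent cells p130 or p107 joins E2F4 and the MuvB core in the DREAM complex, which represses these genes through the cell cycle genes homology region (CHR), an element that the MuvB subunit Lin54 binds. In cycling cells MuvB is joined by B-Myb (Mybl2) and Foxm1 and activates the same genes, often together with the factor NF-Y at nearby CCAAT boxes. Most HSC of adult marrow are quiescent.

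Promoter sequences of these genes were searched for the letters of the CHR and of the CCAAT box. RefSeq windows of assembly GRCm38.p6, from 250 bases before to 50 bases after an annotated start, were at hand for 46 of the 54 genes, and both strands were searched for the CHR letters TTTGAA and the CCAAT box letters CCAAT. The CHR letters stood in the windows of 32 of 46 members (69.6%), against 20.2% of all 27025 genes with a window. CCAAT letters stood in 34 of 46 members (73.9%), against 41.1% of all genes, and 27 members held both (58.7%), against 7.97% of all genes. Of the 43 CHR matches in the members, 33 began within 50 bases of the start, and 1 of the 43 shared a base with a CCAAT match. Positions were not determined for other genes, so the share near the start has no background here. These are matches of letters and not measured binding sites. The 100 bases before the start are shown for 7 members that hold CHR letters upstream of it, 6 of them together with CCAAT letters and Cdca5 without, written 5′ to 3′ on the strand of the gene, with CHR and CCAAT letters of either strand in capitals (TTCAAA and ATTGG are the reverse strand forms). Cks1b, Cdc20, Ube2c, Cdca5 and Ckap2l are shown as members with both deficient pools above both wild type pools, and Cdk1 and Kif11 as members whose groups overlapped.
Cks1b (chr3:89418292-89418391, minus strand): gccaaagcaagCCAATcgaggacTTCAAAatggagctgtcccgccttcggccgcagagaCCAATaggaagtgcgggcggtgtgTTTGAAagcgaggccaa
Cdc20 (chr4:118437344-118437443, minus strand): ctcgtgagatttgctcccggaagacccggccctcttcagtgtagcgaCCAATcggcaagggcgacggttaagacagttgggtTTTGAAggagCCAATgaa
Ube2c (chr2:164769829-164769928, plus strand): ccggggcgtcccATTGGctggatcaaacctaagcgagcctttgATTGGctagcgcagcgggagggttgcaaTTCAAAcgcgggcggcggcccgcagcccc
Cdca5 (chr19:6084997-6085096, plus strand): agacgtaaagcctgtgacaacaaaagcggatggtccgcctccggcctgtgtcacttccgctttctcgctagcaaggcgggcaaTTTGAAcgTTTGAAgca
Ckap2l (chr2:129297213-129297312, minus strand): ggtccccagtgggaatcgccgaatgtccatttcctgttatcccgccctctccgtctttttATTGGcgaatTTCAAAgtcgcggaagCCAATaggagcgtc
Cdk1 (chr10:69352913-69353012, minus strand): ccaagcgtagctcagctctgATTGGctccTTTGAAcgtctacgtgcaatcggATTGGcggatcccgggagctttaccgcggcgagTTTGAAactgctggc
Kif11 (chr19:37376282-37376381, plus strand): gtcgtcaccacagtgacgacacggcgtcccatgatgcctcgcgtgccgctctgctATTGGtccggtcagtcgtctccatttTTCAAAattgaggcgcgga

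**Figure D1:**
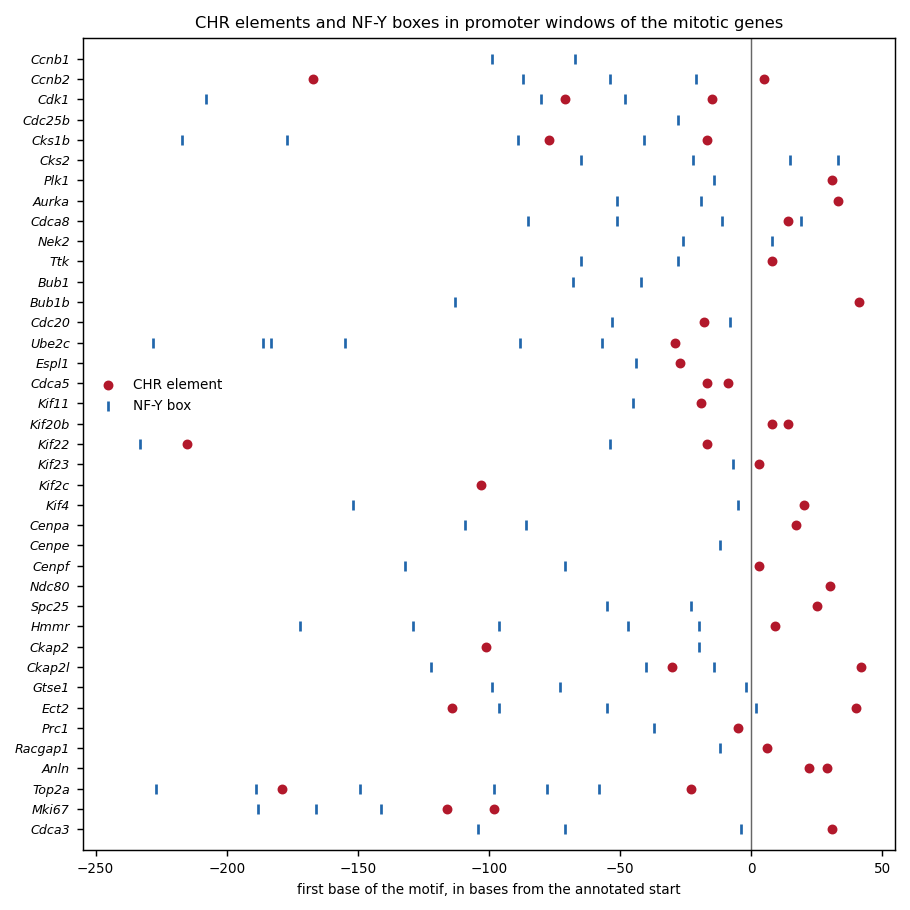
Positions of matches to the CHR letters (red dots, labelled CHR element) and to the CCAAT letters (blue bars, labelled NF-Y box), in the promoter windows of the 39 members that hold either. The x axis gives the first base of each match in bases from the annotated start (vertical line), and rows are members in the order of their roles; CHR matches lie mostly within 50 bases of the start.

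Members with and without separate groups held the CHR letters in similar shares. CHR letters stood in 11 of 15 promoters (73.3%) of members with both deficient pools above both wild type pools, and in 21 of 30 promoters (70.0%) of members whose groups overlapped. Among 69 other mitotic genes with a window, described further on, 28 held the CHR letters (40.6%), and among 15 S phase genes 2 did (13.3%). The windows of 7 members, Birc5, Mad2l1, Melk, Nuf2, Nusap1, Pttg1 and Tacc3, hold neither set of letters as spelled here, which says nothing about what binds there.

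Mitotic genes lay slightly higher in the Rb family deficient pools, and none passed the test. Of the 53 members, 50 had a difference above 0 (deficient minus wild type), where 49.2% of all genes did, and the median difference was 0.29 on the log2 scale against -0.0038 over all genes. Limma with Benjamini-Hochberg adjustment called 0 members and 0 of 18193 genes (0%), and limma was the only tool run. At an unadjusted p under 0.05, 9 members were higher and 0 lower, where 2.19% of all genes were higher (399) and 4.04% lower (735). With each array centred on its median these counts over all genes were 297 higher and 1015 lower, and 5 members were higher. In 18 members both deficient pools lay above both wild type pools, which held for 17.0% of all genes, and in 0 members both lay below, against 18.5% of all genes. With 2 pools per group the smallest two-sided p that an exact permutation test of a single value can give is 0.333. In bulk samples such as these, a different share of dividing cells and a different amount of RNA per dividing cell cannot be told apart.

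In most members the gap within the wild type group exceeded the difference between the groups. Wild type pool 2 was the lowest of the 4 pools in 47 of 53 members, against 19.2% of all genes, and wild type pool 1 lay above wild type pool 2 in 48 members, against 45.3% of all genes. The median of wild type pool 1 minus pool 2 was 0.64 over the members and -0.032 over all genes. The deficient pools lay close together, with a median of pool 1 minus pool 2 of -0.033 over the members. In size the gap between the wild type pools had a median of 0.64 and that between the deficient pools 0.14, against 0.20 and 0.18 over all genes. The wild type gap was larger than the deficient gap in 46 members and larger than the difference between the groups in 40.

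Set against each wild type pool in turn, the deficient mean gave different pictures. Against wild type pool 1, 24 of 53 members lay above 0 with a median of -0.043, where 9679 of 18193 genes did with a median of 0.021. Against wild type pool 2, 52 of 53 lay above 0 with a median of 0.62, where 8137 of 18193 genes did with a median of -0.029. Each of the 4 pairs of single pools followed that division, with medians of -0.018 and -0.020 for deficient pools 1 and 2 against wild type pool 1, and of 0.64 and 0.65 against wild type pool 2. These comparisons share their pools and are not independent of each other. Relative to the fit on all pools, the difference changed sign in 4 of 53 members without wild type pool 1, and in 26 without wild type pool 2.

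**Figure D2:**
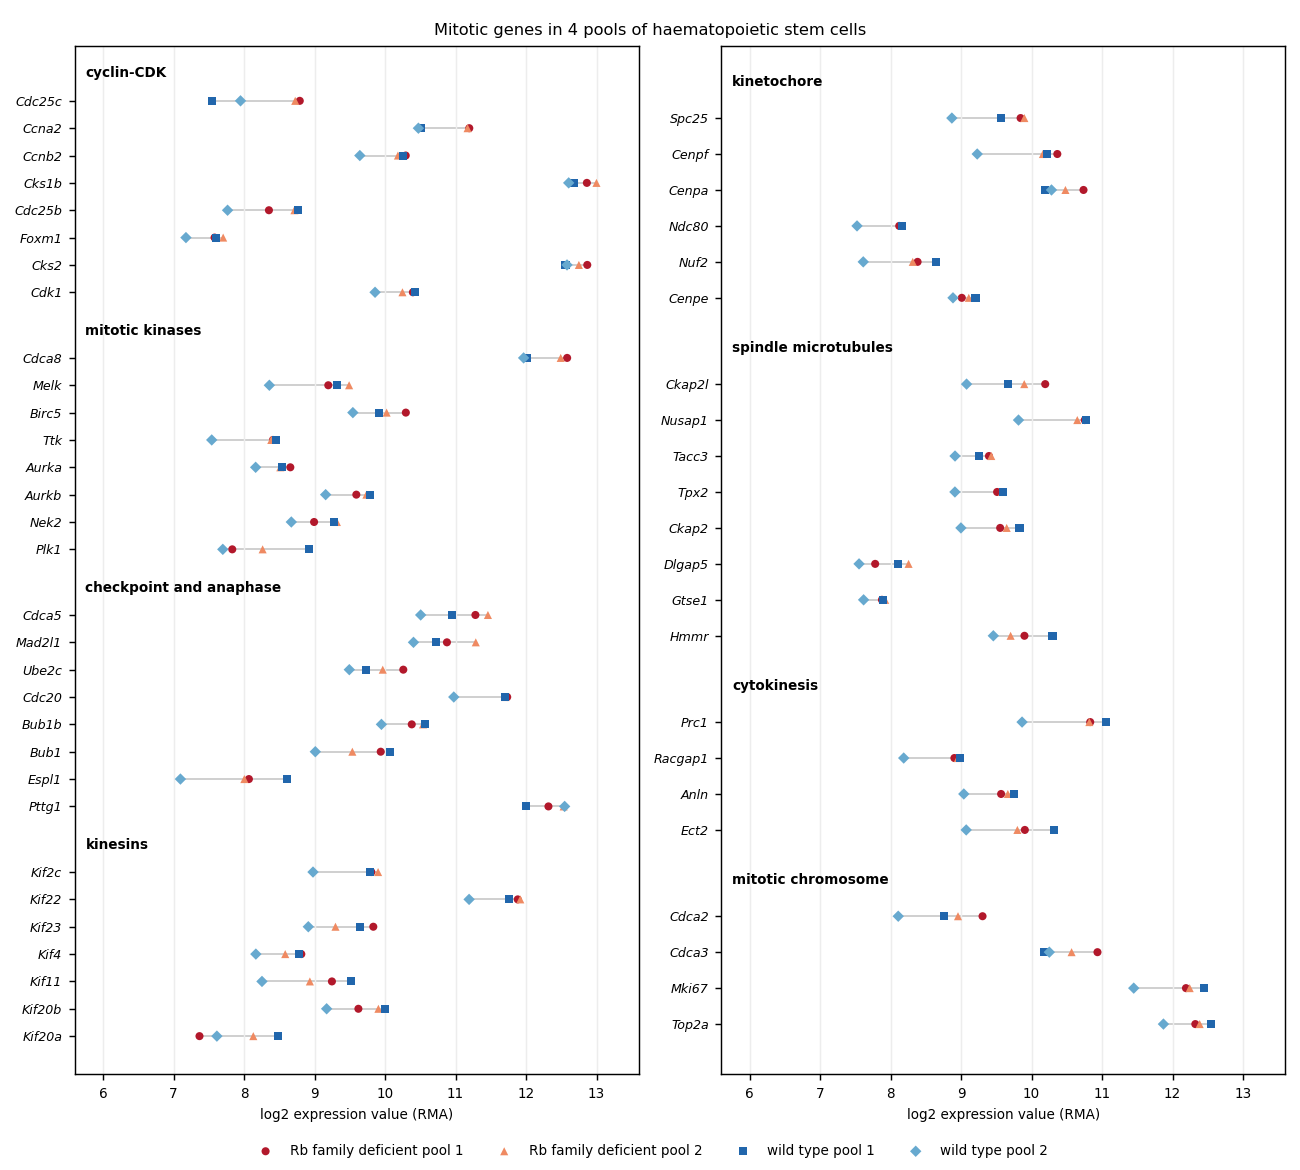
Log2 expression values (x axis, RMA values on the log2 scale) of the 53 members in the 4 pools, by role, with each gene's 4 values joined by a grey line. Wild type pool 2 (light blue diamonds) is the lowest value in 47 of 53 rows, while wild type pool 1 (dark blue squares) lies among or above the deficient pools (red and orange) in most rows.

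Pool-wide properties that could touch all members were as follows. Array medians ran from 5.94 to 6.02. The Actb control probe sets at the 3′ end exceeded those at the 5′ end by 3.13 and 2.95 in deficient HSC, against 2.32 and 2.81 in wild type HSC. For Gapdh the same excess was 2.79 and 2.50 in deficient HSC, against 2.40 and 2.58 in wild type HSC, with overlapping groups. HSC markers were measured for 9 of 10 listed genes, with mean log2 values of 10.17 and 10.54 in deficient HSC, against 10.59 and 10.61 in wild type HSC. In 7 of the 9 the difference was below 0. In 5 both deficient pools lay below both wild type pools and in 1 above both, against 18.5% and 17.0% of all genes. Slamf1, which encodes the CD150 of the gate and was 1 of the 2 above 0, read 9.26 and 9.90 in deficient HSC, against 8.81 and 9.86 in wild type HSC. Kit read 9.94 and 10.45 in deficient HSC, against 11.09 and 10.47 in wild type HSC. Cd48 read 6.29 and 6.57 in deficient HSC, against 5.84 and 7.09 in wild type HSC. Granulocyte and monocyte progenitor markers (6 of 7 listed genes measured) averaged 9.25 and 10.84 in deficient HSC, against 7.96 and 10.66 in wild type HSC. Mature neutrophil markers (9 of 10) averaged 11.50 and 10.59 in deficient HSC, against 9.59 and 10.37 in wild type HSC, and erythroid markers (6 of 8) averaged 9.48 and 9.13 in deficient HSC, against 8.42 and 9.85 in wild type HSC. In these 3 lists every measured gene was lower in wild type pool 1 than in wild type pool 2, as were 9907 of all 18193 genes. Of the 53 mitotic genes 48 were higher in wild type pool 1. Multipotent and lymphoid progenitor markers (6 of 7) averaged 7.79 and 7.40 in deficient HSC, against 7.13 and 7.87 in wild type HSC, and megakaryocyte markers (6 of 6) 9.01 and 9.61 in deficient HSC, against 9.10 and 9.11 in wild type HSC. Macrophage, B cell, and T and NK cell markers averaged between 5.68 and 6.37 in each pool. Wild type pool 1 was also below wild type pool 2 in 4 of 4 B cell genes and 4 of 5 macrophage genes. The same held for 4 of 6 multipotent and lymphoid progenitor, 4 of 6 megakaryocyte, 4 of 9 HSC and 1 of 3 T and NK cell genes. The part that any of these cells had in the results on mitotic genes was not tested.

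Cyclin A2 and the phosphatase Cdc25c differed most among the genes of the Cdk1 engine, and 8 of 8 measured genes of this group lay above 0 with a median of 0.28. Ccna2, the cyclin that serves both S phase and mitotic entry, read 11.19 and 11.17 in deficient HSC, against 10.52 and 10.47 in wild type HSC. Its deficient pools lay well above wild type pools that differed by 0.042, a difference of 0.69 (SE 0.14, adjusted p = 0.761) or 1.61-fold. Cdc25c, which removes inhibitory phosphates from Cdk1, read 8.79 and 8.73 in deficient HSC, against 7.54 and 7.95 in wild type HSC. Here wild type pool 1 was the lower of the wild type pools, and the difference was 1.01 (SE 0.19, adjusted p = 0.761) or 2.02-fold. Its probe set carries an _x_at name and can hybridise to other transcripts, and the second Cdc25c probe set read 7.68 and 7.68 in deficient HSC, against 7.16 and 7.10 in wild type HSC, a difference of 0.55. A second, dimmer Ccna2 probe set read 9.63 and 9.41 in deficient HSC, against 9.54 and 9.06 in wild type HSC, a difference of 0.22 with overlapping groups.

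For the kinase itself the groups overlapped. Cdk1 read 10.39 and 10.25 in deficient HSC, against 10.43 and 9.86 in wild type HSC, so that wild type pool 1 was the highest of the 4 and the difference was 0.18 (SE 0.23, adjusted p = 0.912). Against wild type pool 1 alone the deficient mean of Cdk1 differed by -0.11. Foxm1, the forkhead factor that activates many of these genes in G2, read 7.58 and 7.70 in deficient HSC, against 7.60 and 7.18 in wild type HSC, a difference of 0.25 (SE 0.19, adjusted p = 0.864). Wild type pool 1 lay between the deficient pools for Foxm1. Cyclin B2 (Ccnb2) differed by 0.29 (SE 0.24) and the phosphatase Cdc25b by 0.27 (SE 0.36), with wild type pools 0.61 and 1.00 apart. The small Cdk-binding subunits behaved alike in that their wild type pools were close: Cks1b read 12.86 and 13.00 in deficient HSC, against 12.69 and 12.60 in wild type HSC, a difference of 0.29 (SE 0.15), and Cks2 read 12.87 and 12.75 in deficient HSC, against 12.56 and 12.58 in wild type HSC, a difference of 0.24 (SE 0.14). Both deficient pools lay above both wild type pools for each of them, by a margin no larger than 0.18. A second Cks1b probe set gave the same difference (0.29) and a second Cks2 probe set, with an _s_at name, gave -0.045. The median of the group was 0.14 against wild type pool 1 and 0.53 against wild type pool 2.

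Among the 8 mitotic kinases and their partners, 2 had both deficient pools above both wild type pools, where 17.0% of all genes did. Both encode non-catalytic subunits of the chromosomal passenger complex. Cdca8 (borealin), which tethers aurora B to centromeres, read 12.58 and 12.49 in deficient HSC, against 12.02 and 11.97 in wild type HSC, a difference of 0.55 (SE 0.14, adjusted p = 0.761) or 1.46-fold. The wild type pools were 0.051 apart, and 2 further Cdca8 probe sets differed by 0.55 and 0.40, each with both deficient pools above both wild type pools. Birc5 (survivin), the other of them, read 10.29 and 10.02 in deficient HSC, against 9.92 and 9.54 in wild type HSC, a difference of 0.43 (SE 0.20, adjusted p = 0.805). Aurkb, the kinase of the complex, read 9.59 and 9.74 in deficient HSC, against 9.79 and 9.16 in wild type HSC, a difference of 0.19 (SE 0.24, adjusted p = 0.912). Wild type pool 1 was the highest of the 4 for Aurkb, and the deficient mean differed by -0.12 from it and by 0.51 from wild type pool 2.

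Plk1, the polo-like kinase that acts from mitotic entry to cytokinesis, was on the other side. It read 7.83 and 8.26 in deficient HSC, against 8.93 and 7.70 in wild type HSC, a difference of -0.26 (SE 0.42, adjusted p = 0.939). Both deficient pools lay between the wild type pools, which were 1.23 apart, and the deficient mean differed by -0.88 from wild type pool 1 and by 0.35 from wild type pool 2. Aurka, the centrosomal aurora kinase, differed by 0.24 (SE 0.19), and Nek2, which splits the centrosomes, by 0.18 (SE 0.25). The checkpoint kinase Ttk (Mps1) differed by 0.40 (SE 0.31) and Melk by 0.51 (SE 0.34), with wild type pool 2 lowest by a wide margin and wild type pools 0.91 and 0.95 apart. Of the 8 genes 7 lay above 0, with a group median of 0.32, which was -0.012 against wild type pool 1 and 0.54 against wild type pool 2.

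Genes of the spindle checkpoint and of anaphase had a median of 0.29, with 8 of 8 above 0. In 4 of the 8 both deficient pools lay above both wild type pools, where 17.0% of all genes did so. Cdca5 (sororin), which holds sister chromatids together, read 11.28 and 11.46 in deficient HSC, against 10.95 and 10.51 in wild type HSC, a difference of 0.64 (SE 0.20, adjusted p = 0.761) or 1.56-fold. A dimmer Cdca5 probe set differed by 0.14, with wild type pool 1 level with the higher deficient pool. Ube2c, the ubiquitin-conjugating enzyme of the anaphase-promoting complex, read 10.26 and 9.97 in deficient HSC, against 9.74 and 9.49 in wild type HSC, a difference of 0.50 (SE 0.18, adjusted p = 0.782). Both deficient pools lay above both wild type pools for Ube2c, as for Cdca5. Mad2l1 (Mad2), the checkpoint protein that restrains Cdc20, read 10.88 and 11.29 in deficient HSC, against 10.72 and 10.40 in wild type HSC, a difference of 0.52 (SE 0.21), again with separate groups. Cdc20, the activator of the anaphase-promoting complex, read 11.73 and 11.71 in deficient HSC, against 11.70 and 10.97 in wild type HSC, a difference of 0.38 (SE 0.26, adjusted p = 0.851). Its lower deficient pool exceeded wild type pool 1 by only 0.0032, and the deficient mean differed by 0.015 from wild type pool 1 and by 0.75 from wild type pool 2. The Cdc20 probe set used has an _x_at name, and dimmer Cdc20 probe sets differed by 0.29 and 0.19, with overlapping groups in each.

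In most remaining checkpoint genes wild type pool 2 stood apart from the other 3 pools. The checkpoint kinase Bub1 read 9.94 and 9.54 in deficient HSC, against 10.07 and 9.01 in wild type HSC, a difference of 0.20 (SE 0.37). Separase (Espl1), the protease that cuts cohesin, differed by 0.18 (SE 0.49), with a deficient mean -0.58 from wild type pool 1 and 0.94 from wild type pool 2. The wild type pools of Espl1 were 1.52 apart, more than for any other member. Bub1b (BubR1) differed by 0.20 (SE 0.24). Its 2 further probe sets differed by -0.15 and -0.21, so that its sign depends on the probe set. Pttg1 (securin), the inhibitor of separase, was 1 of the 5 members in which wild type pool 1 was the lower of the wild type pools. It read 12.32 and 12.53 in deficient HSC, against 12.00 and 12.55 in wild type HSC, with wild type pool 2 the highest of the 4 and wild type pool 1 the lowest. The difference was 0.15 (SE 0.23), and -0.074 and -0.26 with its 2 further probe sets. The group median was 0.19 against wild type pool 1 and 0.70 against wild type pool 2.

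Kinesins of the mitotic spindle had a median of 0.22, with 6 of 7 above 0. Kif22, the chromokinesin Kid, read 11.88 and 11.92 in deficient HSC, against 11.75 and 11.19 in wild type HSC, a difference of 0.43 (SE 0.22, adjusted p = 0.814). The Kif22 probe set used has an _x_at name, and dimmer Kif22 probe sets differed by 0.46 and 0.15, with overlapping groups in each. Kif2c (MCAK), which depolymerises microtubules at kinetochores, read 9.81 and 9.90 in deficient HSC, against 9.79 and 8.98 in wild type HSC, a difference of 0.47 (SE 0.29, adjusted p = 0.842). For Kif2c the lower deficient pool exceeded wild type pool 1 by 0.015, and the probe set has an _x_at name. Of 3 much dimmer Kif2c probe sets 1 read 6.50 and 6.25 in deficient HSC, against 5.79 and 5.72 in wild type HSC, a difference of 0.62, and the others differed by 0.032 and 0.053. Kif20a, a kinesin of the central spindle, read 7.37 and 8.13 in deficient HSC, against 8.48 and 7.61 in wild type HSC, a difference of -0.30 (SE 0.38, adjusted p = 0.912). Deficient pool 1 was the lowest of the 4 pools for Kif20a and for no other member, and the deficient mean differed by -0.73 from wild type pool 1 and by 0.13 from wild type pool 2.

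The motor Kif11 (Eg5), which pushes the spindle poles apart, read 9.25 and 8.93 in deficient HSC, against 9.52 and 8.25 in wild type HSC, a difference of 0.20 (SE 0.43). Its 2 further probe sets differed by 0.54 and 0.64, and in the dimmest both deficient pools lay above both wild type pools. Kif20b differed by 0.18 (SE 0.30), Kif23 (MKLP1) by 0.29 (SE 0.31) and the chromokinesin Kif4 by 0.22 (SE 0.25), each with overlapping groups. The wild type pools of the 7 kinesins were between 0.56 and 1.27 apart, pool 2 the lower in all 7. The kinesin median was -0.086 against wild type pool 1 and 0.65 against wild type pool 2.

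Kinetochore genes, which link centromeres to microtubules, had a median of 0.34 with 6 of 6 above 0. Spc25, a subunit of the Ndc80 complex, read 9.84 and 9.90 in deficient HSC, against 9.57 and 8.87 in wild type HSC, a difference of 0.65 (SE 0.26, adjusted p = 0.793) or 1.57-fold. Its second probe set read 7.29 and 6.72 in deficient HSC, against 6.35 and 6.43 in wild type HSC, a difference of 0.61. The other measured subunits of the complex overlapped, with Ndc80 at 0.30 (SE 0.24) and Nuf2 at 0.22 (SE 0.35), and with wild type pool 1 between the deficient pools for Ndc80 and above both for Nuf2. Cenpa, the histone H3 variant that marks centromeres, read 10.74 and 10.48 in deficient HSC, against 10.19 and 10.28 in wild type HSC, a difference of 0.37 (SE 0.16, adjusted p = 0.801). Its wild type pools were 0.092 apart, pool 1 the lower, and 2 further Cenpa probe sets differed by 0.80 and 0.34. Cenpf differed by 0.54 (SE 0.34), with wild type pool 2 lower than pool 1 by 0.99. The kinetochore motor Cenpe differed by 0.015 (SE 0.17), the smallest difference of the 53 members, while a second Cenpe probe set read 8.92 and 8.60 in deficient HSC, against 8.72 and 7.45 in wild type HSC, a difference of 0.68. The group median was 0.014 against wild type pool 1 and 0.68 against wild type pool 2.

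Of the genes for spindle and microtubule-associated proteins 7 of 8 lay above 0, with a median of 0.24. Ckap2l, a protein of the mitotic spindle, read 10.19 and 9.90 in deficient HSC, against 9.66 and 9.08 in wild type HSC, a difference of 0.68 (SE 0.24, adjusted p = 0.782) or 1.60-fold. A second Ckap2l probe set read 8.81 and 8.63 in deficient HSC, against 8.21 and 7.94 in wild type HSC, a difference of 0.65. Tacc3, which stabilises spindle fibres, read 9.40 and 9.43 in deficient HSC, against 9.26 and 8.91 in wild type HSC, a difference of 0.33 (SE 0.18, adjusted p = 0.823), and its 2 further probe sets differed by 0.40 and 0.37. Hmmr (Rhamm), a partner of aurora A at the spindle poles, read 9.90 and 9.70 in deficient HSC, against 10.30 and 9.46 in wild type HSC, a difference of -0.076 (SE 0.30, adjusted p = 0.980). Its deficient mean differed by -0.50 from wild type pool 1 and by 0.34 from wild type pool 2. The other 4 Hmmr probe sets ran from -0.84 to 0.48, the widest range of any member. The groups overlapped for Nusap1 at 0.41 (SE 0.33), the aurora A activator Tpx2 at 0.30 (SE 0.25), Ckap2 at 0.19 (SE 0.29), Gtse1 at 0.15 (SE 0.16) and Dlgap5 at 0.19 (SE 0.26). A further Tpx2 probe set read 9.13 and 8.88 in deficient HSC, against 8.39 and 8.20 in wild type HSC, a difference of 0.71, with the groups apart. The group median was -0.055 against wild type pool 1 and 0.55 against wild type pool 2.

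Of the 4 cytokinesis genes 4 lay above 0, against 49.2% of all genes, and their groups overlapped in 4 of 4. Over all genes, both deficient pools lay above both wild type pools in 17.0% and below both in 18.5%. Racgap1, the GTPase-activating subunit of centralspindlin, read 8.91 and 8.95 in deficient HSC, against 8.99 and 8.19 in wild type HSC, a difference of 0.34 (SE 0.28, adjusted p = 0.870). Prc1, which bundles microtubules of the central spindle, read 10.83 and 10.82 in deficient HSC, against 11.05 and 9.87 in wild type HSC, a difference of 0.37 (SE 0.39, adjusted p = 0.898). Ect2, which is needed for cytokinesis, read 9.90 and 9.80 in deficient HSC, against 10.32 and 9.07 in wild type HSC, and anillin (Anln), the scaffold of the contractile ring, read 9.57 and 9.66 in deficient HSC, against 9.75 and 9.04 in wild type HSC. In all 4 genes wild type pool 1 was the highest of the 4 pools and wild type pool 2 the lowest, with the deficient pools between. The group's median difference was 0.28, and it was -0.18 against wild type pool 1 and 0.76 against wild type pool 2.

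The group labelled mitotic chromosome, which also holds the mitotic entry gene Cdca3, lay above 0 in 4 of 4 genes. In 2 of the 4 both deficient pools lay above both wild type pools, where 17.0% of all genes did so. Cdca3 (Tome-1), which promotes mitotic entry, read 10.93 and 10.57 in deficient HSC, against 10.17 and 10.25 in wild type HSC, a difference of 0.54 (SE 0.18, adjusted p = 0.761). Its wild type pools were 0.080 apart, and 2 much dimmer probe sets differed by 0.14 and 0.023. Cdca2 (Repo-Man), which brings protein phosphatase 1 to chromatin, read 9.30 and 8.96 in deficient HSC, against 8.76 and 8.11 in wild type HSC, a difference of 0.70 (SE 0.27, adjusted p = 0.791) or 1.62-fold. Further Cdca2 probe sets differed by 0.038 and -0.19. Mki67, the Ki-67 antigen used as a marker of cycling cells, read 12.19 and 12.24 in deficient HSC, against 12.44 and 11.45 in wild type HSC, a difference of 0.27 (SE 0.34, adjusted p = 0.911). Top2a, the topoisomerase that untangles sister chromatids, read 12.32 and 12.38 in deficient HSC, against 12.55 and 11.87 in wild type HSC, a difference of 0.14 (SE 0.25, adjusted p = 0.944). For both Mki67 and Top2a wild type pool 1 was the highest pool and wild type pool 2 the lowest, and against wild type pool 1 their deficient means differed by -0.23 and -0.19. A dimmer Top2a probe set read 8.83 and 8.58 in deficient HSC, against 8.23 and 7.47 in wild type HSC, a difference of 0.86, with the groups apart. The group median was 0.40 in all, 0.087 against wild type pool 1 and 0.63 against wild type pool 2.

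**Figure D3:**
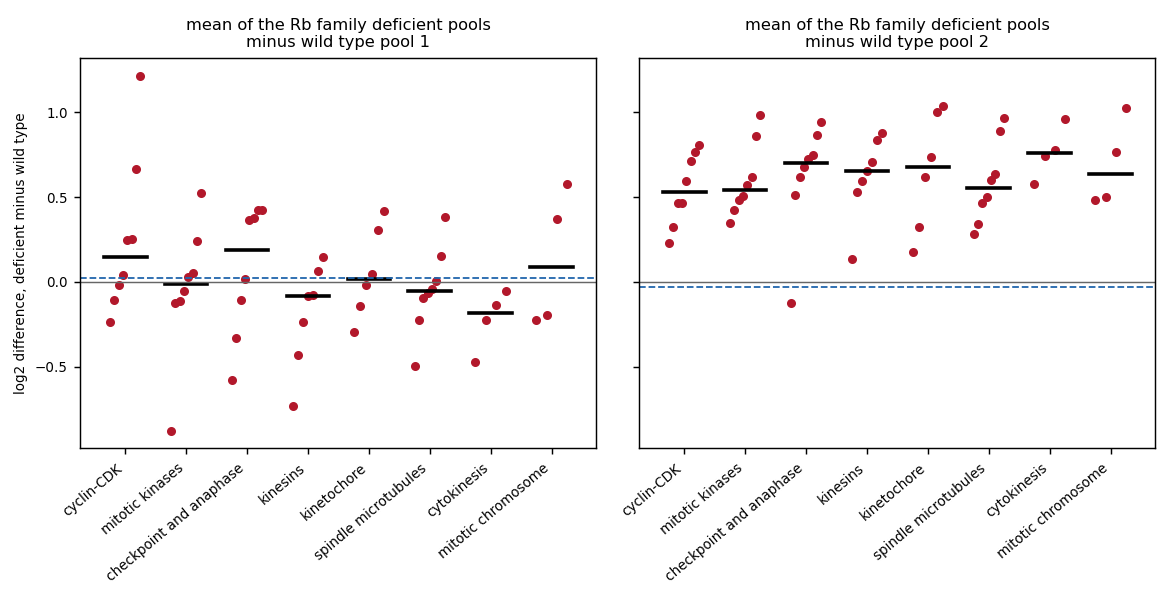
Log2 difference of the mean of the deficient pools from wild type pool 1 (left) and from wild type pool 2 (right), 1 point per member, by role. Black bars are group medians and the dashed blue line is the median over all genes; the group medians lie between -0.18 and 0.19 on the left and between 0.53 and 0.76 on the right.

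Some members differed between the groups with little spread between the wild type pools. In 6 members, Ccna2, Cks1b, Cks2, Cdca8, Cenpa and Cdca3, the wild type pools lay within 0.1 of each other, and in 6 of these 6 both deficient pools lay above both. Among the 4970 genes of the array with wild type pools that close, 29.2% had both deficient pools above both. The 6 were picked out after their values were seen. Across the 18 members whose groups were apart, the gap between the lower deficient and the higher wild type pool ran from 0.0032 to 0.78, the largest for Cdc25c, and was under 0.1 for 2, Cdc20 and Kif2c. At least 1.5-fold differences were reached by 6 members, Cdc25c, Cdca2, Ccna2, Ckap2l, Spc25 and Cdca5, all higher in deficient HSC, where 1.84% of all genes did so. In the 35 members whose groups overlapped, wild type pool 1 was above both deficient pools in 23 and between them in 11, and wild type pool 2 was below both deficient pools in 33.

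Other probe sets of the same genes gave a second reading of each pool. Of the 53 members 36 had more than 1 probe set, 63 further probe sets in all. In 27 of the 36 genes every probe set had the same sign, and in 9 the signs differed. Of the further probe sets 49 of 63 lay above 0 with a median of 0.19, where 52.7% of the further probe sets of all genes lay above 0 with a median of 0.01. Both deficient pools were above both wild type pools in 18 of 63, and below both in 3, against 19.3% above over all further probe sets. Wild type pool 2 was the lowest of the 4 pools in 46 of the 63, against 23.7% over all. Probe sets of a gene share the arrays and the RNA and are no replicates.

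**Figure D4:**
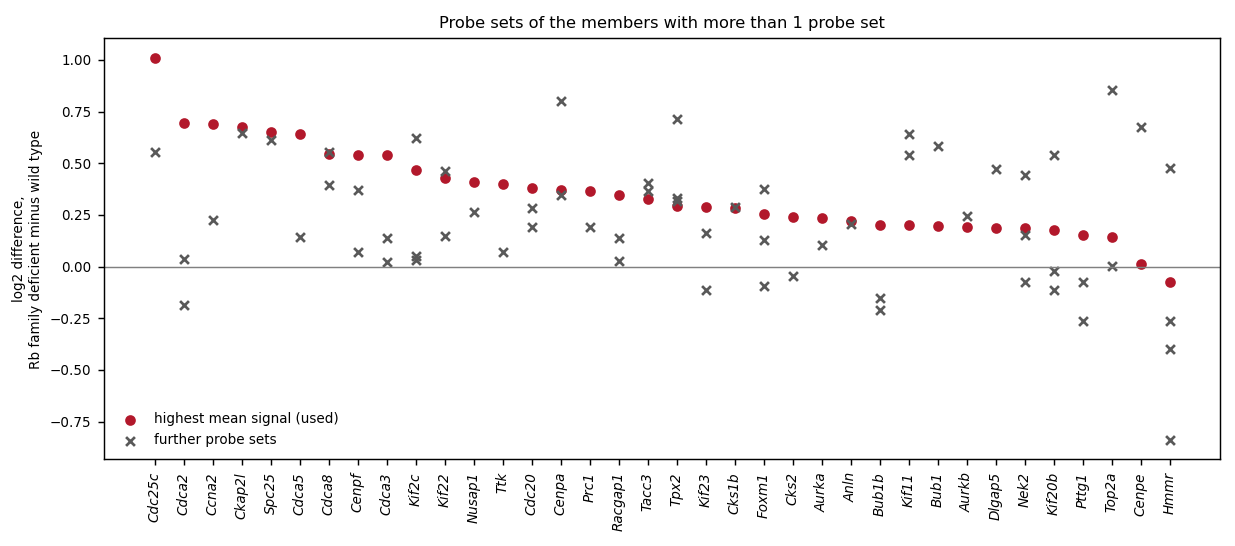
Log2 difference (Rb family deficient minus wild type) for every probe set of the 36 members with more than 1, members ordered by the probe set used (red dots, highest mean signal); grey crosses are the 63 further probe sets. Crosses lie on the same side of 0 as the dot for 27 of the 36 members, and the spread is widest for Hmmr.

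Mitotic genes outside the 54 were set against the same pools. Of 83 further genes of the pathway 81 were measured, with a median of 0.14. Of these, 57 lay above 0, against 49.2% of all genes. At an unadjusted p under 0.05, 9 were higher and 0 lower, against 2.19% and 4.04% of all genes. None passed the adjusted threshold. Both deficient pools lay above both wild type pools in 29 of 81 and below both in 6, against 17.0% and 18.5% of all genes. The lowest pool was wild type pool 2 in 57 of 81, against 19.2% of all genes. The median was 0.030 against wild type pool 1 and 0.44 against wild type pool 2. Of 13 further regulators of mitotic entry 9 lay above 0 with a median of 0.30. The histone H3 kinase Haspin read 9.45 and 9.22 in deficient HSC, against 8.80 and 8.34 in wild type HSC, a difference of 0.77 (SE 0.21), and the Cdk1 inhibitory kinase Pkmyt1 differed by 0.46 (SE 0.15). Among 21 further checkpoint and anaphase genes, whose median was 0.063, the anaphase-promoting complex inhibitor Fbxo5 (Emi1) differed by 0.64 (SE 0.20) and shugoshin (Sgo1) by 0.71 (SE 0.25). In that list wild type pool 2 was the lowest pool in 9 of 21 genes, against 19.2% of all genes. There wild type pool 1 was below wild type pool 2 in 7, and the median was 0.049 against wild type pool 1 and 0.10 against wild type pool 2. Of the 21 measured genes of the outer and inner kinetochore 17 lay above 0 with a median of 0.22, and Spc24, the binding partner of Spc25, read 9.89 and 9.74 in deficient HSC, against 9.30 and 9.05 in wild type HSC, a difference of 0.64 (SE 0.17). Pmf1 of the Mis12 complex differed by 0.55 (SE 0.16).

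Among 18 further kinesin and spindle genes the median was 0.12, with Kif14 at 0.57 (SE 0.16) and Spag5 at 0.62 (SE 0.29). In 18 of 18 of these genes wild type pool 2 was below wild type pool 1, against 45.3% of all genes. The 8 condensin genes, which compact mitotic chromosomes, had a median of 0.038, with Ncaph at 0.65 (SE 0.28) and Ncapg at 0.60 (SE 0.28). In 8 of 8 wild type pool 2 was the lowest pool, against 19.2% of all genes. S phase genes (19 of 20 measured) had a median of 0.14, with 15 above 0, against 49.2% of all genes. At an unadjusted p under 0.05 there were 0, and Rfc4 at 0.49 (SE 0.19) and Rrm2 at 0.42 (SE 0.18) had the lowest p. The S phase median was -0.0047 against wild type pool 1 and 0.29 against wild type pool 2. Wild type pool 2 was the lowest pool in 14 of 19 S phase genes, against 19.2% of all genes.

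**Figure D5:**
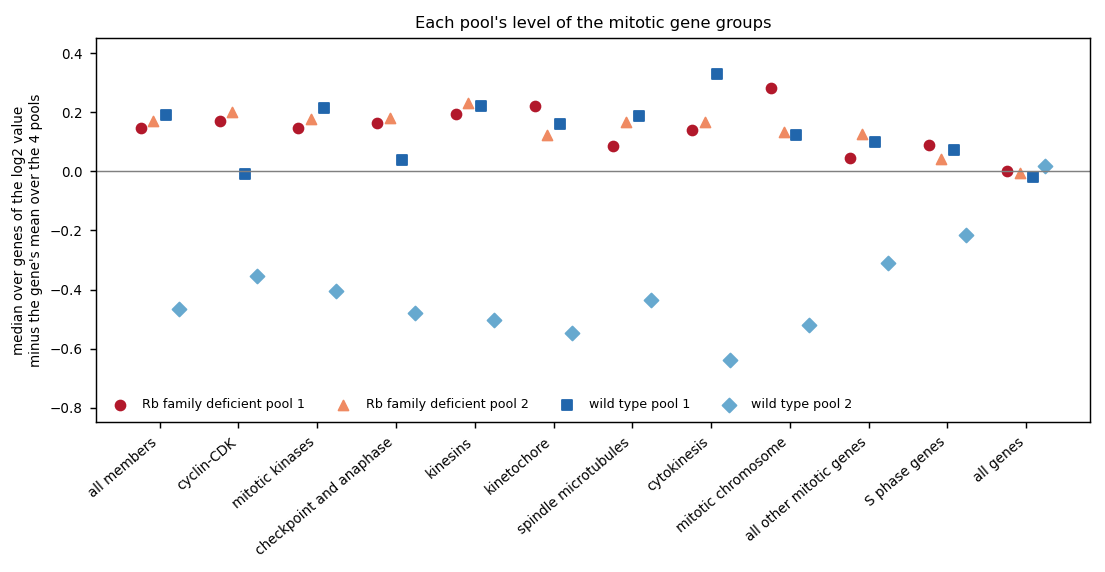
Median over the genes of each group (x axis) of a gene's log2 value minus its mean over the 4 pools (y axis), 1 symbol per pool. Wild type pool 2 (light blue diamonds) lies between -0.22 and -0.64 in all groups but that of all genes, where it stands at 0.018, and in all those groups the other 3 pools lie above it.

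Of 12 listed genes of the Rb family, DREAM and MuvB 6 lay above 0 and 6 below, with a median of -0.0020. Wild type pool 2 was the lowest pool in 6 of the 12, against 19.2% of all genes. Rbl2 (p130) read 7.82 and 8.21 in deficient HSC, against 8.94 and 8.75 in wild type HSC, a difference of -0.83 (SE 0.19, adjusted p = 0.761), and Rb1 read 9.82 and 9.72 in deficient HSC, against 9.37 and 9.58 in wild type HSC, a difference of 0.29 (SE 0.16, adjusted p = 0.820). Rbl1 (p107), which both groups lack by label, read 5.35 and 5.42 in deficient HSC, against 5.92 and 6.77 in wild type HSC, a difference of -0.96 (SE 0.30, adjusted p = 0.761). Nothing used here says whether these probe sets lie inside the deleted exons, so their levels do not check the labels. Lin54, the MuvB subunit that binds the CHR and the gene of that list with the largest difference above 0, read 9.30 and 9.69 in deficient HSC, against 9.39 and 8.64 in wild type HSC, a difference of 0.48 (SE 0.30, adjusted p = 0.842), with wild type pool 2 the lowest. Mybl2 read 7.20 and 7.61 in deficient HSC, against 7.30 and 6.90 in wild type HSC, a difference of 0.30 (SE 0.23, adjusted p = 0.864), with overlapping groups and wild type pool 2 again the lowest.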

How the data were processed

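The authors deposited a table of log2 values for 4 mouse Affymetrix arrays, made with RMA per the submitters' processing notes. Those notes also name limma and give no version. That the scale is log2 follows from the range of 2.65 to 14.9. RMA gives all arrays nearly the same distribution, so a shift common to all genes would not show, and folds of dim probe sets are compressed. No detection calls were used, and the small number of arrays limits precision.

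Of 45101 probe sets, 64 controls were left out, 34945 had exactly 1 gene symbol, 932 several and 9160 none listed. Symbols were updated through the Entrez ID with a RefSeq table (GRCm38.p6; 34741 matched), and 18193 genes resulted. Differences are Rb family deficient minus wild type from limma 3.58.1 (lmFit, eBayes) in R 4.3.3 on all genes, without a block, with Benjamini-Hochberg adjustment and a threshold of 0.05. SE is the moderated standard error, and n = 2 pools per group throughout. The fit was tested on simulated data. Members described with values in every pool are the 2 with the smallest p in each role, Cdk1, Plk1, Aurkb, Cdc20, Mki67, Top2a, Foxm1 and those below 0. Other genes whose values are given were chosen after their values were seen, except that 2 with the smallest p are named from each list of further genes. The members, lists and tests were chosen with earlier results of these data known. Lists are described by counts and medians and were not tested. Same-numbered pools deviated from their group means in opposite directions (r = -0.19 over genes). With 2 pools per group this cannot decide whether same-numbered pools were handled together, which is not stated.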

Additional observations from a re-analysis of the deposited data

How the results depend on the processing

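No member and no gene passed the adjusted threshold under any of the 11 alternatives run, of which the crossed block was chosen after seeing the data. Wild type pool 2 moved the results most. With 1 pool left out, members above 0 ran from 24 (without wild type pool 2) to 52 (without wild type pool 1), members higher at an unadjusted p under 0.05 from 3 to 33, members lower from 0 to 2, and over all genes 244 to 689 were higher and 317 to 1082 lower. List medians ran from -0.043 to 0.62 for all members, 0.14 to 0.53 for the Cdk1 and cyclin group, -0.012 to 0.54 for the kinases, 0.19 to 0.70 for checkpoint and anaphase genes, -0.086 to 0.65 for the kinesins, 0.030 to 0.44 for all further mitotic genes, 0.10 to 0.50 for further entry regulators, 0.054 to 0.44 for further kinetochore genes, -0.13 to 0.57 for further kinesin and spindle genes, -0.21 to 0.47 for condensins, with the low end in each case without wild type pool 2 and the high end without wild type pool 1. Members whose sign turned with a pool left out had these ranges of log2 difference: Ccnb2 -0.017 to 0.60, Cdk1 -0.11 to 0.46, Cdc25b -0.24 to 0.77, Plk1 -0.88 to 0.35, Aurkb -0.12 to 0.51, Nek2 -0.12 to 0.48, Ttk -0.053 to 0.86, Bub1 -0.33 to 0.73, Bub1b -0.11 to 0.51, Espl1 -0.58 to 0.94, Pttg1 -0.12 to 0.43, Kif11 -0.43 to 0.84, Kif20a -0.73 to 0.13, Kif20b -0.23 to 0.59, Kif23 -0.080 to 0.65, Kif4 -0.086 to 0.53, Cenpe -0.15 to 0.17, Ndc80 -0.016 to 0.62, Nuf2 -0.30 to 0.74, Nusap1 -0.067 to 0.89, Tpx2 -0.043 to 0.63, Hmmr -0.50 to 0.34, Ckap2 -0.23 to 0.60, Dlgap5 -0.093 to 0.47, Ect2 -0.47 to 0.78, Prc1 -0.23 to 0.96, Racgap1 -0.055 to 0.74, Anln -0.14 to 0.58, Top2a -0.19 to 0.48, Mki67 -0.23 to 0.77. Without wild type pool 2 alone, 26 of 53 members changed sign. When probe sets without _x_at or _s_at names were preferred, Bub1b and Pttg1 stood at -0.15 and -0.074, and on averaging all probe sets at -0.053 and -0.061. With median centring Cenpe stood at -0.040 and 5 members were higher at an unadjusted p under 0.05. Leaving out dim genes gave 176 genes higher and 408 lower, from fewer genes tested. With the replicate block, at the unadjusted threshold, 281 genes lay higher, 457 lay lower and 6 members lay higher, and the block changed no adjusted call. With the numbers crossed in the replicate block 1151 genes were lower at the unadjusted threshold, against 735 in the main fit. There 7 members were higher, against 9 in the main fit. An intensity trend in the prior turned no member's sign. The cause was not tested where a pool decided a value.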
